A study of Mus musculus with 2 samples.

Results

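The interferon genes described here are 49 mouse genes taken from a list of interferon-stimulated genes, Ifi200 family members and interferon signalling factors, among 12393 genes that the arrays carried under a single symbol. They were read in 2 clones of LM8 cells, which are mouse osteosarcoma cells that form lung metastases. The hPHD4 clone was stably transfected with a full length cDNA of human prolyl hydroxylase domain protein 4 (PHD4) in pcDNA3.1, the control clone with empty pcDNA3.1, and both were kept under selection with 0.5 mg/ml G418. PHD4 is a prolyl hydroxylase of the endoplasmic reticulum membrane, of the family of oxygen-dependent enzymes that act on hypoxia-inducible factors. The comparison asked how LM8 cells that carry human PHD4 differ in gene expression from cells that carry the vector. Total RNA of each clone was read on 1 Affymetrix mouse array, so n = 1 in each group, no test was possible and no difference has a replicate check. The effect of PHD4 and other differences between the clones cannot be told apart. The transgene is a human cDNA and was not followed on these mouse arrays. No probe set was annotated to its mouse counterpart P4htm alone.

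Type I interferons bind the receptor chains IFNAR1 and IFNAR2, and interferon-gamma binds IFNGR1 and IFNGR2. The kinases JAK1, JAK2 and TYK2 on these receptors phosphorylate STAT proteins. STAT2 and IRF9 are parts of the factor that binds the interferon-stimulated response element. The induced genes encode sensors of viral RNA, enzymes that block viral replication, GTPases that attack intracellular vacuoles, and inhibitors that close the loop.

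Of the 49 genes, 36 lay above the floor in both clones and are called measured; 8 had probe sets but did not meet this rule, and 5 had no probe set annotated to them alone (Ddx58, Isg15, Ifi44, Xaf1 and Ifi203). The floor of an array was the 40th percentile of its probe sets, a log2 signal of 6.34 for the hPHD4 clone and of 6.08 for the control clone. Below, where 2 signals follow each other, the hPHD4 clone comes first. The signal of a gene is the mean log2 signal over its measured probe sets, and its ratio is the hPHD4 clone minus the control clone on the log2 scale. In place of a replicate error, ratios were set against the SD between probe sets of 1 gene, with all measured genes divided into 3 equal classes by brightness: it was 0.40 in the dim class, 0.37 in the middle class and 0.28 in the bright class. That SD leaves out differences between cultures, clones and arrays, and passing it was common: 35.5% of all measured genes differed by more than 1 SD and 8.33% by more than 2, against 15 and 5 of the 36 measured members.

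Interferon-stimulated genes were mostly a little higher in the hPHD4 clone. Of the 36 measured members, 11 were at least 1.5-fold higher, while 8.94% of all measured genes were; 1 member, Ifit3, was at least 1.5-fold lower, against 5.22% of all. The 11 were Mndal, Usp18, Oasl2, Ifit1, Ifih1, Irf9, Stat2, Igtp, Ifngr2, Ifitm1 and Bst2. The median log2 ratio of the measured members was 0.27, against 0.03 over all 7452 measured genes, and 27 of the 36 were above 0, against 53.6% of all. The members were chosen with earlier results of these data known, so these contrasts are not those of a list chosen blind. The 17 signalling genes (receptors, kinases, Stat2, IRF factors and inhibitors) had a median of 0.20 over 16 measured, and the 32 effector genes 0.28 over 20 measured. Mndal was the 1 member past 2-fold, where 1.89% of the measured genes lay at least 2-fold above the control and 0.98% at least 2-fold below it.

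**Figure D1:**
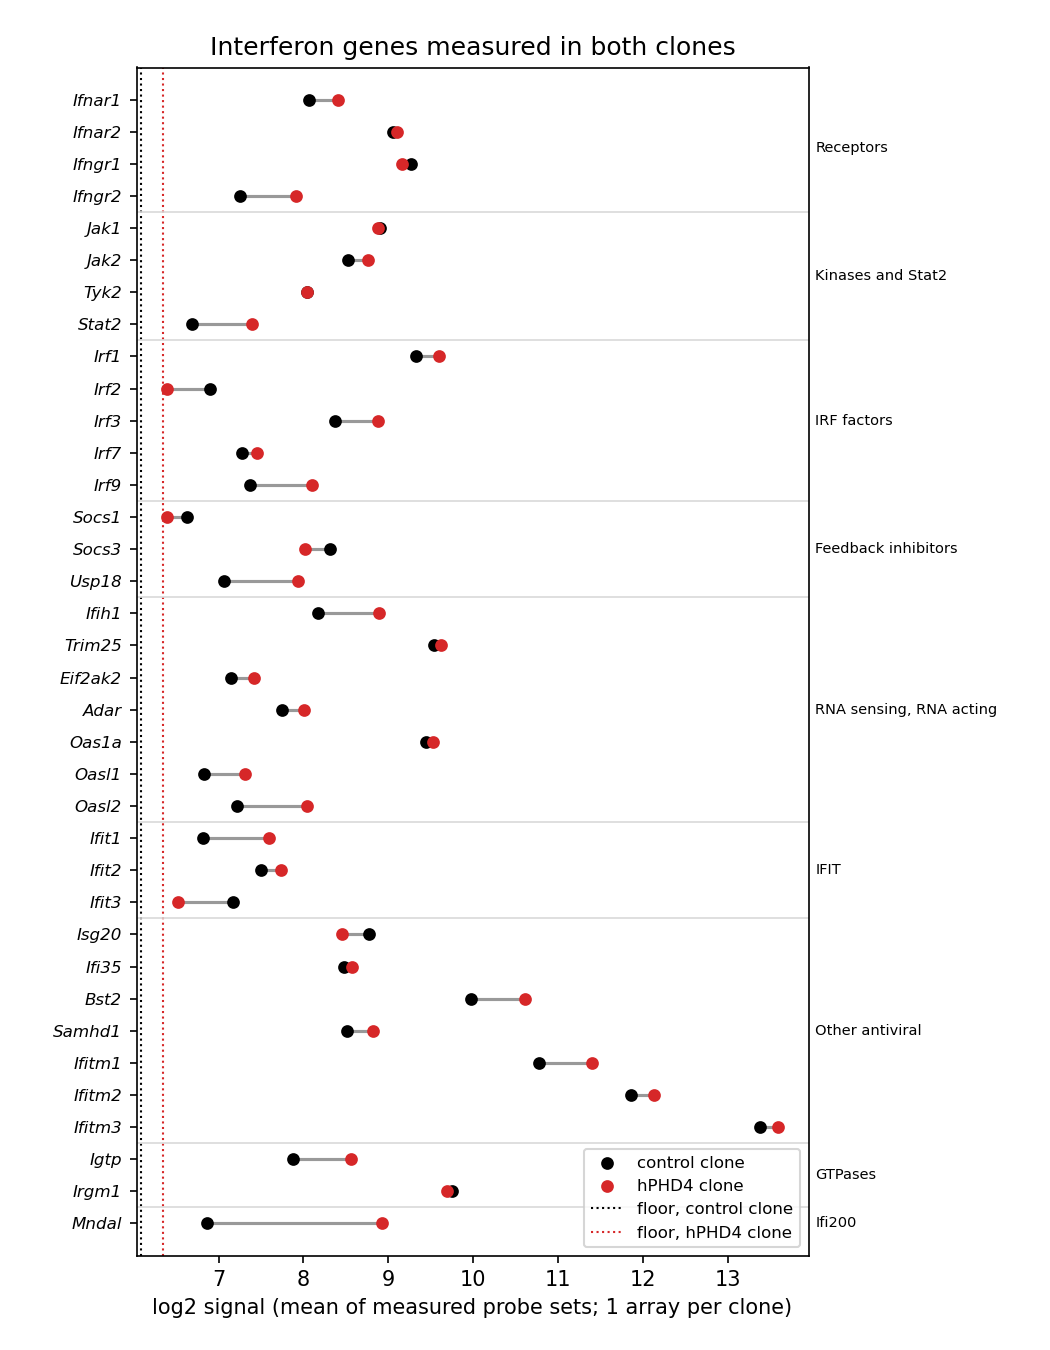
Log2 signal (horizontal axis) of the 36 interferon genes measured in both clones, grouped by role. Red points are the hPHD4 clone, black points the control clone, 1 array each, and dotted lines the floor of each array; most red points lie to the right of the black ones, with Mndal farthest apart (8.93 and 6.87).

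Brightness moved with these counts. Among all measured genes, the median ratio was 0.13 in the dim class, 0.02 in the middle class and −0.03 in the bright class. Of the measured members, 15 lay in the dim class, and 7 of them were at least 1.5-fold higher, where 16.3% of all genes of that class were. In the middle class 2 of 13 members were at least 1.5-fold higher, against 7.17% of all genes. In the bright class 2 of 8, Bst2 and Ifitm1, were at least 1.5-fold higher, against 3.38%. When the floor was set at the 60th percentile, 21 members stayed measured, 5 of them at least 1.5-fold higher and 0 lower, and the median was 0.10. Of all 5330 genes measured at that floor, 4.71% were at least 1.5-fold higher and 4.58% lower, with a median of −0.0037.

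**Figure D2:**
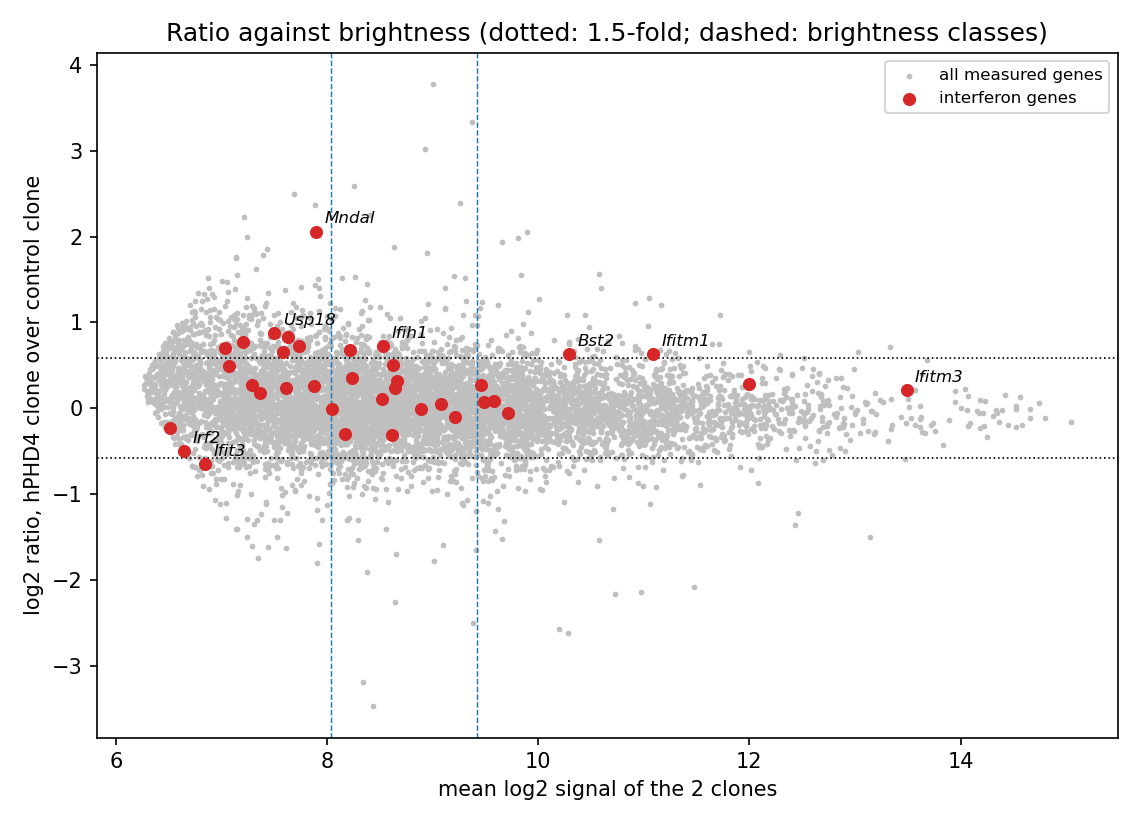
Log2 ratio (vertical axis) against mean log2 signal (horizontal axis) for all 7452 measured genes in grey and the 36 interferon genes in red. Dotted lines mark 1.5-fold and dashed lines the limits of the 3 brightness classes; 15 of the red points lie in the dim class, and Ifitm3 lies at the bright end.

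The interferon receptors differed little, with 1 of 4 genes at least 1.5-fold higher, against 8.94% of all measured genes. Ifnar1, the signalling chain of the type I receptor, had log2 signals of 8.41 and 8.06, a ratio of 0.35. Ifnar2, its partner chain, was at 9.10 and 9.06, a ratio of 0.04. Ifngr1, the ligand-binding chain of the interferon-gamma receptor, was at 9.17 and 9.26, a ratio of −0.10. All 3 differences were smaller than the SD of 0.37 between probe sets at that brightness. Ifngr2, the second chain of that receptor, was at 7.91 and 7.26, a ratio of 0.66 (1.58-fold). Its probe sets did not agree in direction, at −0.16 and 1.47, and with only the brightest probe set its ratio was −0.16. It no longer reached 1.5-fold after quantile normalization (0.56) or loess correction (0.57) either. In the gene order of assembly GRCm38.p6, Ifnar2, Il10rb, Ifnar1 and Ifngr2 follow each other on chromosome 16. Il10rb, a receptor chain shared by interleukin 10 and lambda interferons and no member of the list, was at 8.09 and 7.20, a ratio of 0.89, so the 4 neighbours ranged from 0.04 to 0.89.

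The receptor kinases were close to equal in the clones. Jak1, which serves both receptor types, was at 8.89 and 8.90, with probe sets at 0.35, 0.07 and −0.46. Jak2, of the interferon-gamma receptor, was at 8.76 and 8.53, a ratio of 0.23, and Tyk2, of the type I receptor, was at 8.04 and 8.05, a ratio of −0.01. None of the 3 kinases differed by more than the SD between probe sets at its brightness.

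Stat2 and Irf9, which encode parts of the same transcription factor, were both higher in the hPHD4 clone. Stat2 was at 7.39 and 6.69, a ratio of 0.70 (1.63-fold). A second probe set of Stat2, at 6.86 and 6.00, lay under the floor in the control clone and was also higher in the hPHD4 clone. Irf9, the DNA-binding subunit, was at 8.10 and 7.38, a ratio of 0.72 (1.65-fold). Both ratios were above the SD of 0.40 for dim genes and below 2 such SDs. Stat2 no longer reached 1.5-fold after quantile normalization (0.56) or loess correction (0.55), nor Irf9 after subtraction of the median of its chromosome (0.58).

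The other IRF factors lay on both sides of 0. Irf3, which is activated by nucleic acid sensors, was at 8.88 and 8.38, with its 2 measured probe sets at 0.32 and 0.68. Irf1, an activator induced by interferon-gamma, was at 9.60 and 9.32, a ratio of 0.27, and Irf7, which amplifies type I interferon production, at 7.45 and 7.28, a ratio of 0.17. Neither exceeded the SD at its brightness, whereas Irf3 at 0.50 did. The probe set of Irf3 at 0.68 is of a type that can bind several transcripts. Without probe sets of that type Irf3 was at 0.32, within the SD of 0.37. Irf2, a repressor that competes with Irf1 for its sites, was lower in the hPHD4 clone, at 6.39 and 6.90, a ratio of −0.50. Its signal there was just above the floor of 6.34, and the ratio was −0.71 after quantile normalization and −0.73 after loess correction, past 1.5-fold. The only probe set of Irf2 is also of the type that can bind several transcripts. Irf8, a factor of myeloid cells, was under the floor in both clones on both of its probe sets.

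The inhibitors of the pathway were split. Usp18, the protease that removes ISG15 from proteins and blocks the type I receptor, was at 7.94 and 7.07, a ratio of 0.87 (1.83-fold), which is over 2 SDs at that brightness, as were 8.33% of all measured genes. It ranked 223 from the top among the 7452 measured genes. Socs1, a JAK inhibitor induced by interferon, was at 6.40 and 6.62, a ratio of −0.23, close to the floor. Socs3, an inhibitor induced mainly by cytokines of the interleukin 6 family, was at 8.02 and 8.32, with probe sets at −0.29, 0.43 and −1.03. Neither SOCS gene differed by more than the SD at its brightness.

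All 7 measured genes of RNA sensing and RNA-acting enzymes had ratios above 0, and 2 of them, Ifih1 and Oasl2, were at least 1.5-fold higher. Over all measured genes these shares were 53.6% and 8.94%. Ifih1, which encodes the double-stranded RNA sensor MDA5, was at 8.89 and 8.17, a ratio of 0.72 (1.65-fold). Oasl2, an oligoadenylate synthetase-like protein, was at 8.04 and 7.21, a ratio of 0.83 (1.78-fold). Its neighbour on chromosome 5, Oasl1, a translational inhibitor of Irf7, was at 7.32 and 6.82, a ratio of 0.49 (1.41-fold). All 3 ratios were above the SD at their brightness, and that of Oasl2 was over 2 SDs. Oas1a, an oligoadenylate synthetase that activates RNase L, was at 9.52 and 9.45, a ratio of 0.08. Eif2ak2, which encodes the kinase PKR, was at 7.42 and 7.15, a ratio of 0.27 with probe sets at 0.39 and 0.16. Adar, the RNA-editing enzyme, had linear signals of 256 and 214, a log2 ratio of 0.26. These 3 genes stayed within the SD. Trim25, the ubiquitin ligase of RIG-I, was at 9.63 and 9.54, a ratio of 0.09 with probe sets at −0.08, −0.14 and 0.48.

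**Figure D3:**
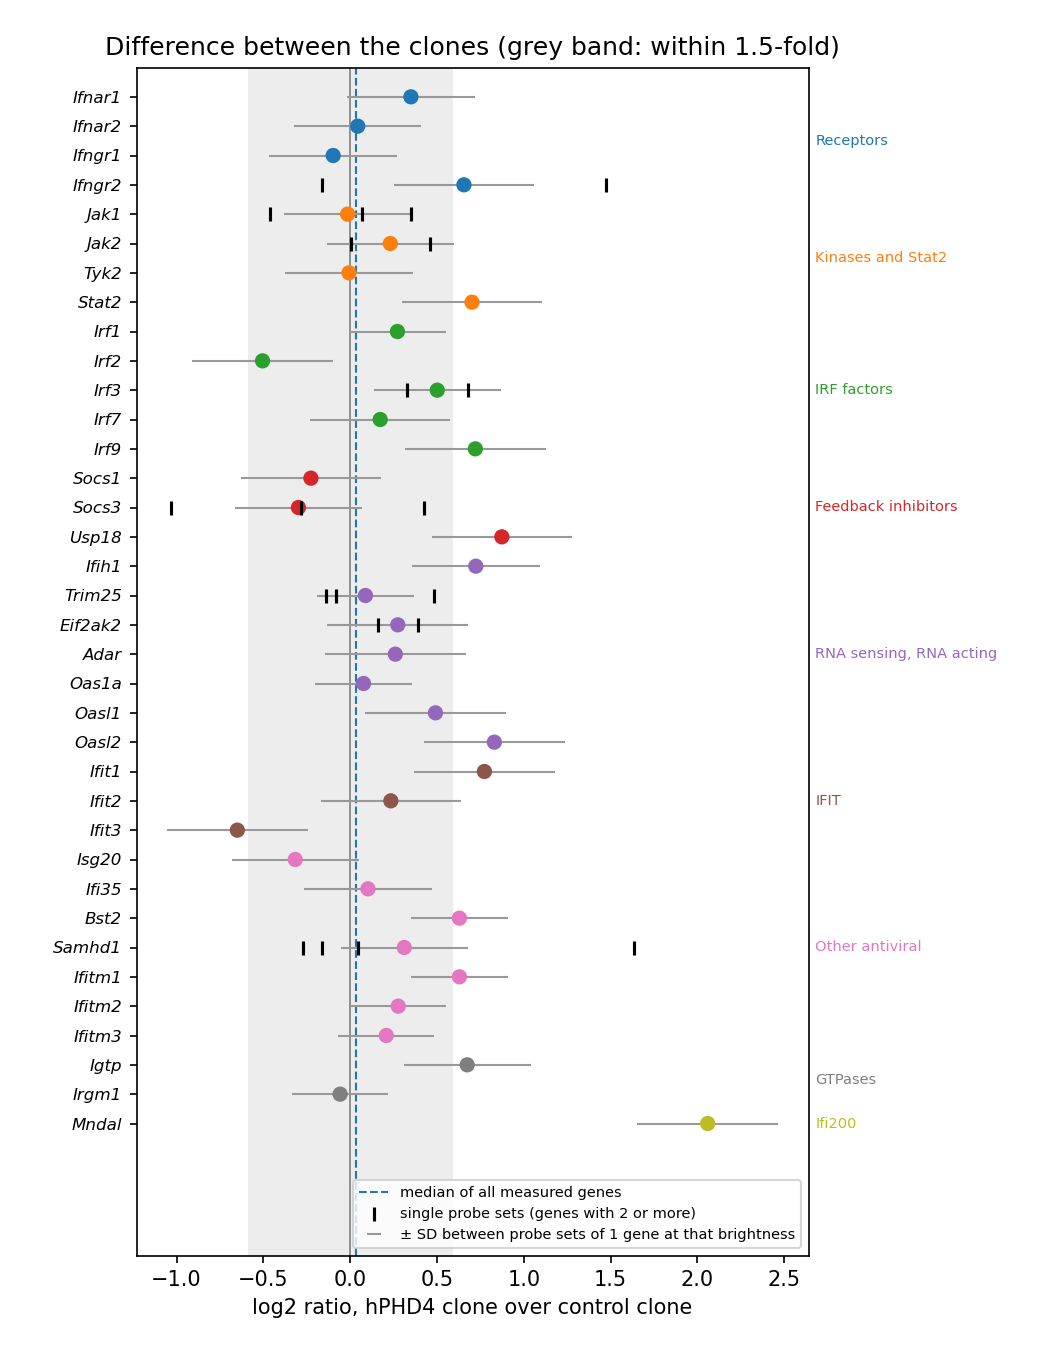
Log2 ratio, hPHD4 clone over control clone (horizontal axis), of the 36 measured interferon genes, coloured by role. Bars are the SD between probe sets of 1 gene at that brightness, black ticks the single probe sets of genes with 2 or more, the grey band is within 1.5-fold and the dashed line is the median of all measured genes (0.03); Mndal stands alone at 2.06 and Ifit3 lies lowest at −0.65.

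The IFIT genes, which encode proteins that bind foreign RNA, lay on opposite sides although they sit in 1 cluster on chromosome 19. Ifit1, which binds RNA that lacks cap methylation, was at 7.59 and 6.82, a ratio of 0.77 (1.71-fold higher). Ifit2, a partner that binds AU-rich RNA, was at 7.73 and 7.50, a ratio of 0.23. Ifit3, which stabilises IFIT complexes, was at 6.52 and 7.17, a ratio of −0.65 (1.57-fold lower). Each gene was read by 1 probe set, and the signal of Ifit3 in the hPHD4 clone was close to the floor. The median ratio of all measured genes on chromosome 19 was 0.31, and after it was subtracted Ifit1 was at 0.47, no longer 1.5-fold, and Ifit3 at −0.96. The 250 bases before the start of Ifit1 and of Ifit3 are shown because both hold the same pair of 10-base matches to the core of the interferon-stimulated response element (the ISRE core: GAAA, any 2 bases, GAAA), while the genes lay on opposite sides. The sequences are RefSeq's on GRCm38.p6, Ifit1 at chr19:34640639-34640888 on the plus strand and Ifit3 at chr19:34583279-34583528 on the plus strand. Capitals mark the matches, which read TTTCACTTTC and TTTCAGTTTC on the printed strand.
Ifit1: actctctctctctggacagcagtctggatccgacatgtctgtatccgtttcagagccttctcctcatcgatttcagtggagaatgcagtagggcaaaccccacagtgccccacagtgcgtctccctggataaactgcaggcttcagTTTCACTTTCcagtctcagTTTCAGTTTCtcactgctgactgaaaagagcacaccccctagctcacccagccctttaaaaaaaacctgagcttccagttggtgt
Ifit3: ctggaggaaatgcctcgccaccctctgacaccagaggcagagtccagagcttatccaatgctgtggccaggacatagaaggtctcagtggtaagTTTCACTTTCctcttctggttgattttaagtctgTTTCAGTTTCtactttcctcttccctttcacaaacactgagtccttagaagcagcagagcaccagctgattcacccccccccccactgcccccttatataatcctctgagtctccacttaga
In Ifit1 the matches lay 104 to 95 and 85 to 76 bases before the start, and in Ifit3 156 to 147 and 122 to 113 bases before it.

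Among the other antiviral effectors, 6 of 7 measured genes had ratios above 0 and 2 were at least 1.5-fold higher. Over all measured genes these shares were 53.6% and 8.94%. Bst2, which encodes tetherin, a protein that holds budding virus at the cell surface, was at 10.61 and 9.98, a ratio of 0.63 (1.55-fold). The IFITM genes encode membrane proteins that block fusion of incoming virus and lie together on chromosome 7. Ifitm1 was at 11.40 and 10.77, a ratio of 0.63 (1.55-fold). Both of these bright genes exceeded 2 SDs at their brightness, which 8.33% of all measured genes did. Ifitm2 was at 12.13 and 11.86, a ratio of 0.28, and Ifitm3 at 13.59 and 13.39, a ratio of 0.21. The median ratio of all measured genes on chromosome 7 was 0.19, and after its subtraction Ifitm1 was at 0.44, no longer 1.5-fold.

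Other effectors differed less. Ifi35, an adaptor that pairs with Nmi, was at 8.58 and 8.47, a ratio of 0.10. Isg20, a 3′ exonuclease of RNA, was lower in the hPHD4 clone, at 8.46 and 8.78, a ratio of −0.32. Neither exceeded the SD of 0.37. Samhd1, which depletes the nucleotide pool, had a mean ratio of 0.31 over 4 probe sets. One of them was at 1.63, with a control signal of 6.22 near the floor; the others were at −0.27, 0.05 and −0.16, and with only the brightest the ratio was −0.27. Of the 8 members with 2 or more measured probe sets, 3 (Jak2, Irf3 and Eif2ak2) had all of them on 1 side of 0, or 37.5%, against 52.7% of such genes on the array. The other 28 measured members rested on 1 probe set each.

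The immunity-related GTPases were unequal. Igtp, which encodes a GTPase (IRGM3) that protects lipid droplets and membranes from its effector relatives, was at 8.56 and 7.88, a ratio of 0.67 (1.60-fold). Irgm1, a regulator of the same family, was at 9.69 and 9.75, a ratio of −0.06. The promoters of both are shown because both hold matches close to the start while only Igtp was higher. Igtp is at chr11:58199306-58199555 on the plus strand and Irgm1 at chr11:48871421-48871670 on the minus strand, from RefSeq on GRCm38.p6. Capitals mark the ISRE core and, in Igtp, also a TTCNNNGAA match, the core of the gamma-activated site; the 2 matches of Irgm1 overlap.
Igtp: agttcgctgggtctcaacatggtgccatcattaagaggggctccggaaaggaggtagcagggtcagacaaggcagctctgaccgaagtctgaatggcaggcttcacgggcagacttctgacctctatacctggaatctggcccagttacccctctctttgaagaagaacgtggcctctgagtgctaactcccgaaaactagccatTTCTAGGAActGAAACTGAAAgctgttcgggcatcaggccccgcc
Irgm1: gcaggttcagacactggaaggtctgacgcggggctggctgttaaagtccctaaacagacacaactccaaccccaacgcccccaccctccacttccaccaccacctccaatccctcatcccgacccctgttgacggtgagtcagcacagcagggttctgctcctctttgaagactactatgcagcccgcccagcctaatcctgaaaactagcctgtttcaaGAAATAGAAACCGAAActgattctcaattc
Igtp held GAAACTGAAA 34 to 25 bases before its start, and Irgm1 held GAAATAGAAA at 30 to 21 and GAAACCGAAA at 24 to 15.

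The largest difference among the measured members was that of Mndal, an interferon-inducible nuclear protein of the Ifi200 family, in a cluster on chromosome 1. Its measured probe set was at 8.93 and 6.87, a ratio of 2.06 (4.17-fold), which ranked 10 from the top among the 7452 measured genes. Its other probe set, at 7.38 and 5.63, was under the floor in the control clone and likewise higher in the hPHD4 clone. With both probe sets kept at a common floor the ratio was 1.55. The measured probe set is of a type that can bind several related transcripts, and Ifi200 genes are closely similar, so the value is uncertain as to the gene. Ifi204, its neighbour, passed the floor of the hPHD4 array only, at 6.42 and 5.71. Ifi202b, of the same cluster, was at 11.20 and 11.07, a ratio of 0.14. Its probe set can also bind several transcripts, so this value too is uncertain as to the gene. The 250 bases before the first listed start of Mndal, at chr1:173880188-173880437 on the minus strand (RefSeq, GRCm38.p6), are shown as the window of the member with the highest ratio; capitals mark 1 match to the ISRE core, 36 to 27 bases before the start.
Mndal: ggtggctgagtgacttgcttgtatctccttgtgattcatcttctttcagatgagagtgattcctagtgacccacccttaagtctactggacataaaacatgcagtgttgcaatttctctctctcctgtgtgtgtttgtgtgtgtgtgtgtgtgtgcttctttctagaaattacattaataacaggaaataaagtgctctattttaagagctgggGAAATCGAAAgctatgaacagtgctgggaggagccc

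The 8 members that were not above the floor in both clones add no fold values, because none met the rule for a bound, a signal above the 75th percentile in 1 clone. Rsad2, which encodes viperin, an inhibitor of viral polymerases, had its brightest probe set at 7.70 and 5.47, the latter under the floor; its 2 other probe sets were under the floor in both. Iigp1, an effector GTPase, was at 7.28 and 6.08 on its brighter probe set, just under the control floor. These signals were higher in the hPHD4 clone, at levels where the floor decides whether a gene counts as measured. Gbp3, at 6.34 and 6.66, passed the floor of the control array and lay just under that of the hPHD4 array. Gbp2, which like Gbp3 encodes a guanylate-binding protein, and the dynamin-like GTPase genes Mx1 and Mx2 were under the floor in both clones, as was Irf8. When the floor was set at the 20th percentile, 43 members were measured, 14 of them at least 1.5-fold higher and 1 lower, where 16.4% and 6.64% of all measured genes were.

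**Figure D4:**
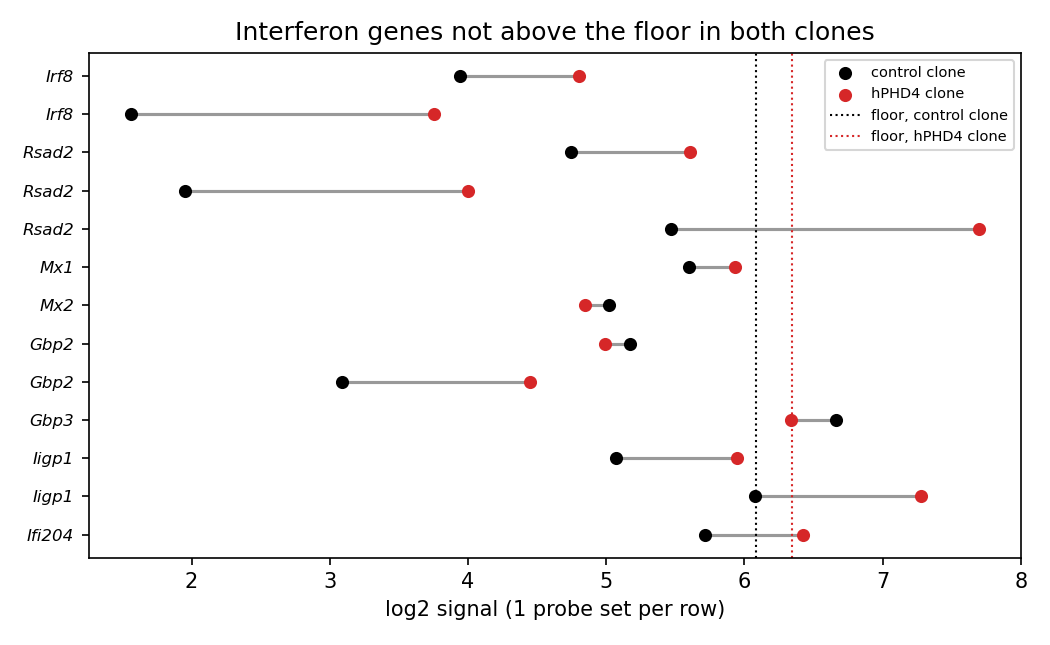
Log2 signal (horizontal axis) of the 13 probe sets of the 8 interferon genes that were not above the floor in both clones, 1 probe set per row, in the hPHD4 clone (red) and the control clone (black). Dotted lines are the floors; Rsad2, Iigp1 and Ifi204 each have 1 probe set past the floor on the hPHD4 array only, and Gbp3 has 1 past it on the control array only.

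Matches to the interferon-stimulated response element core were found in members with higher and with lower ratios. The promoter table held 44 of the 49 members; Usp18, Mx1, Mx2, Iigp1 and Ifi204 had no entry. The ISRE core was searched on both strands in the 250 bases before each start, and was found for 17 of 55 member promoters (30.9%), against 2.98% of all 32851 promoters of the table. The core TTCNNNGAA was found in 12 of the 55 (21.8%), against 7.02% of all. The members were chosen as interferon genes, so these shares describe the list. Of 11 measured members with the ISRE core, 5 (Mndal, Ifit1, Stat2, Igtp and Bst2) were at least 1.5-fold higher and 1 (Ifit3) lower, with a median ratio of 0.28; of 24 without it, 5 were higher and 0 lower, with a median of 0.25. Over all 195 measured genes with the ISRE core, 10.3% were at least 1.5-fold higher, with a median ratio of 0.03, and over 5949 without it 8.74%, also with a median of 0.03. These counts hold the members: without them, 8.15% of 184 genes with the ISRE core were at least 1.5-fold higher, against 8.69% of 5925 without it, the reverse order.

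Genes of the pathway outside the list of members were read in the same way. Of 80 other interferon-stimulated genes 31 were measured; 9 were at least 1.5-fold higher and 1 lower, with a median ratio of 0.22 and 23 above 0. Over the 7452 measured genes these shares were 8.94% higher, 5.22% lower and 53.6% above 0. The lists of genes outside the members were likewise chosen with earlier results of these data known. Farthest above 0 were Gbp7, a guanylate-binding protein, at 7.74 and 6.26 (ratio 1.48), Ifi47, an immunity-related GTPase, at 9.82 and 8.42 (1.40), Irgm2, the neighbour of Igtp, at 7.71 and 6.59 (1.11), and Nmi, the partner of Ifi35, at 7.80 and 6.71 (1.09). The control signals of Gbp7 and, among the genes named next, of Sp100 (6.21) were near the floor. The remaining 5 were Rtp4 (ratio 0.94), Sp100 (0.76), Parp12 (0.66), Tor3a (0.66) and Ube2l6 (0.62). Tap1, a peptide transporter subunit, was the 1 gene at least 1.5-fold lower, at 7.71 and 8.36 (−0.65). Oas2 and Oas3, synthetases related to Oas1a, were at −0.45 and −0.28.

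Of 24 genes of nucleic acid sensing 10 were measured, with a median ratio of 0.38. Irf5, a factor downstream of Toll-like receptors, was at 0.71 with a control signal of 6.15 near the floor. Rnaseh2c, a subunit of RNase H2, was at 0.69. Both were at least 1.5-fold higher, and 0 measured genes were at least 1.5-fold lower. Among genes not measured, Sting1, at 5.55 and 6.98, and a probe set of Tlr3, at 6.09 and 7.14, passed the control floor only. Dhx58 had probe sets past the hPHD4 floor only, at 6.69 and 5.82 and at 6.59 and 3.59. Of 21 other signalling genes 14 were measured, with a median of 0.14. Il10rb (0.89), the cytokine feedback inhibitor Cish (0.75) and Stat3 (0.66) were at least 1.5-fold higher and 0 lower. The measured probe sets of Stat3 lay apart, at 0.13 and 1.20. Both counts stand against the same 8.94% higher and 5.22% lower of all measured genes. The phosphatase genes Ptpn2, Ptpn6 and Ptpn11, which act on JAKs or STATs, were at −0.50, −0.51 and −0.45, while Ptpn1, another phosphatase of JAKs, was at 0.22. None of these phosphatase genes reached 1.5-fold, and Ptpn6 and Ptpn11 each rested on 1 measured probe set.

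**Figure D5:**
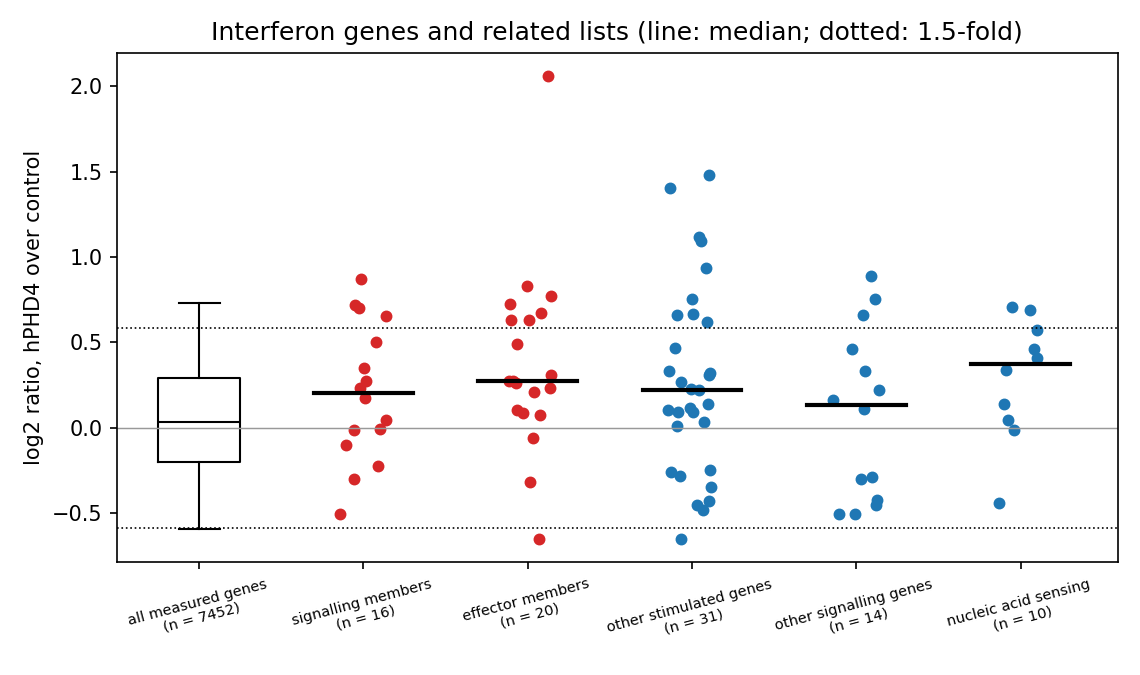
Log2 ratio, hPHD4 clone over control clone (vertical axis), of the measured members, split into 16 signalling and 20 effector genes (red), and of 3 further lists (blue), 1 point per gene, with lines at the medians. The box for all 7452 measured genes spans the quartiles with whiskers from the 5th to the 95th percentile, and dotted lines mark 1.5-fold; the medians of the lists lie between 0.14 and 0.38, that of all genes at 0.03.

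Apart from Ifnz, the interferon genes with a probe set of their own were dim. Of 21 ligand genes 10 had a probe set of their own, and 1, Ifnz, which encodes the type I interferon zeta, was measured, at 9.12 and 8.22, a ratio of 0.90 (1.87-fold). Ifnb1, which encodes interferon-beta, was at 6.39 and 5.04, just past the floor on the hPHD4 array only. Ifng and the 7 alpha interferon genes on the array, Ifna1, Ifna2, Ifna4, Ifna5, Ifna9, Ifna11 and Ifnab, were under the floor in both clones.

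Markers of the labelled cell type were present. Of 7 osteoblast lineage markers with a probe set, 5 were measured, Sp7, Alpl, Col1a1, Col1a2 and Ibsp. Of 15 leukocyte markers 6 were measured, and the summed linear signal of all 15 was 1402 for the hPHD4 clone and 2039 for the control clone, with 0 probe sets at a log2 signal of 0. Fcer1g alone differed by −3.20; without it the sums were 1296 and 1059. Ptprc, which marks all leukocytes, was under the floor in both clones, at 5.47 and 1.16. The part of leukocyte RNA in the interferon genes was not tested. Of 7 epithelial markers 0 were measured, and of 7 endothelial markers 3. On the hPHD4 array 2 epithelial markers passed the floor, and on the control array 0. The summed linear signals, hPHD4 clone first, were 434 and 252 for the epithelial markers and 1161 and 1034 for the endothelial ones.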

How the data were processed

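Total RNA (5 µg) of 2 LM8 clones was hybridised to 1 array each, per the labels. The authors deposited a log2 signal for each probe set, computed with MAS5 per the submitters' processing notes; of the software, its version is not given in the sources used here. Log base and scaling were read from the values: as powers of 2, the mean after trimming 2% at each end was about 500.2 on both arrays. Of 22690 probe sets, 64 were controls, 20380 had 1 gene symbol, 691 several and 1555 none. Probe sets with several symbols gave no gene value. The platform annotation was matched by gene number to a RefSeq table of GRCm38.p6 (20351 found).

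From these, log2 ratios, counts past 1.5-fold and medians were computed with Python 3.11.15 and pandas 2.3.3, with no further scaling and no test; a loess alternative used statsmodels 0.14.6 with a span of 0.3. Probe sets above the 40th percentile on both arrays counted as measured. Every member is accounted for; other pathway genes are named when at least 1.5-fold apart, or as ligands, and those named below that level were chosen after their values were seen. The members and lists were chosen with earlier results of these data known. The 250-base promoter window and the 3 brightness classes were chosen after the files were seen. The steps were tested on simulated data. Differences of at least 2-fold were planted there, in genes with control signals above those of most members past 1.5-fold. Smaller differences and dimmer genes were not covered. The 1 array per clone limits the precision. MAS5 detection calls were not used here.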

Additional observations from a re-analysis of the deposited data

How the results depend on the processing

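The median ratio of the measured members stayed above 0 under all 9 alternatives, between 0.10 and 0.27. It moved to 0.10 under the 60th percentile floor, to 0.19 with the brightest probe set per gene and to 0.20 after subtraction of chromosome medians, by more than the SD between probe sets divided by the square root of the number of members. That mark treats the members as independent and leaves out differences between clones, cultures and arrays, so it is no error of the median. The count of members at least 1.5-fold higher was between 9 and 14 under 8 of the 9 and 5 under the 60th percentile floor, where fewer members were measured; at a 2-fold threshold it was 1. The count of members at least 1.5-fold lower was 2 after quantile normalization and after loess correction (Ifit3 and Irf2), and 0 under the 60th percentile floor or at a 2-fold threshold. Of the 12 members past 1.5-fold, only Ifngr2 turned to the other side, at −0.16 with the brightest probe set. Over all measured genes, the shares at least 1.5-fold higher and lower were 8.94% and 5.22%, against 6.66% and 6.43% after quantile normalization and 6.63% and 6.43% after loess correction. The share higher was 16.4% under the 20th percentile floor, 4.71% under the 60th, and 4.87% with dim probe sets kept at a common floor. Under the remaining alternatives it lay between 7.56% and 9.51%, and 1.89% were at least 2-fold higher. The member counts stand against these moving shares. No paired analysis was possible because each group has 1 array. Dim signals limit the members past 1.5-fold: under the 60th percentile floor 4 of these 12 were measured, and 21 of all 36.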
